A study of Homo sapiens with 6 samples.

Results

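HNMT, the histamine H1 receptor gene HRH1 and the monoamine oxidase genes MAOA and MAOB were examined in cultured human podocytes. These 4 genes were taken by symbol from the deposited table of 20745 genes, where each has 1 row. They were chosen by name with the fold changes and p-values of the authors' comparison of levamisole with control in view, and those values are neither given nor used here. The cells were AB 8/13, a conditionally immortalized human podocyte line that divides at a permissive temperature and was differentiated at a restrictive temperature before the experiment. There were 3 control cultures, labeled as kept without serum for 24 h, and 3 cultures labeled as given levamisole at 1 µM for 24 h. Cells of a different passage were used for each replicate. The treatment label of the levamisole cultures names no serum condition, whereas the treatment protocol given for every sample states serum-free medium. The study's methods instead place the control cultures in complete medium, so whether serum differed between the groups is unresolved. Libraries followed a modified CEL-seq procedure, which primes cDNA on the poly(A) tail with a sample barcode and therefore reads mainly the 3′ ends of mRNAs. For each gene the value used here is the base mean, which is the authors' mean of normalized counts over all libraries of their fit. It pools treated and untreated cultures, so it carries no SD and no n, and the change of a gene with levamisole was not analysed here. The depth of each library is unknown.

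The 4 genes belong to the handling of histamine and other biogenic amines. HNMT encodes histamine N-methyltransferase, a cytosolic enzyme that moves a methyl group from S-adenosylmethionine onto the imidazole ring of histamine and so inactivates histamine inside cells. MAOA and MAOB encode flavin enzymes of the outer mitochondrial membrane that oxidize amines to aldehydes, releasing ammonia and hydrogen peroxide. MAOA prefers serotonin and noradrenaline, whereas MAOB prefers phenylethylamine and also oxidizes the methylated histamine that HNMT produces. HRH1 encodes a receptor at the cell surface that binds extracellular histamine and signals through Gq proteins and phospholipase C. In the kidney, HNMT and both monoamine oxidases are best known from the tubule.

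The sequences just upstream of the 4 genes are shown because they hold a feature that the selection did not use, the GC box, a short element bound by factors of the Sp1 family. Each is the 250 bases before the RefSeq start that coincides with the start of the canonical transcript, on build GRCh38.p14, written 5′ to 3′ on the strand of the gene. Capitals mark GC boxes, spelled GGGCGG on either strand. The windows are chr2:137964223-137964472 on the plus strand for HNMT, chr3:11154243-11154492 on the plus strand for HRH1, chrX:43656049-43656298 on the plus strand for MAOA and chrX:43882451-43882700 on the minus strand for MAOB.
HNMT: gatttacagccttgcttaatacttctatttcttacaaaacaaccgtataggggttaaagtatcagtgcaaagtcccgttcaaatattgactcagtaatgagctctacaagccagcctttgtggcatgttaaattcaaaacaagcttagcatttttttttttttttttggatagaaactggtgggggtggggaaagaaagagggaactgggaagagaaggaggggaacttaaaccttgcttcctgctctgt
HRH1: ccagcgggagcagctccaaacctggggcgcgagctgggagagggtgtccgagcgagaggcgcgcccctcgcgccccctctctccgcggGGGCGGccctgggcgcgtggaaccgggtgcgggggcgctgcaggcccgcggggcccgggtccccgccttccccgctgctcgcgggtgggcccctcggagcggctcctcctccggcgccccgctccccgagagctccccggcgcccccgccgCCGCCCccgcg
MAOA: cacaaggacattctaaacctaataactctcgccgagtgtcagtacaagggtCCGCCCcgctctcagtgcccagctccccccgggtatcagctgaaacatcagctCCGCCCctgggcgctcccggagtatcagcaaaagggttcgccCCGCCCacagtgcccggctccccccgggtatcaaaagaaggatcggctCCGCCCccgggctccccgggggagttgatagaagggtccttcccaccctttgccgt
MAOB: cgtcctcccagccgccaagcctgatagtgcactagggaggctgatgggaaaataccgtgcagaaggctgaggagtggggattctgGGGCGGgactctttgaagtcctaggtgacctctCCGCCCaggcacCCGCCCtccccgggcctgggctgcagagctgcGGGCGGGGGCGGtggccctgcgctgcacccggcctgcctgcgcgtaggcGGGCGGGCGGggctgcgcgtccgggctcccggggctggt

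The promoter of HNMT held 0 GC boxes and had a GC content of 39.6%, lower than all but 12.1% of 35116 RefSeq promoter windows of the same length. HRH1 held 2 GC boxes, MAOA 4 and MAOB 7, counting overlapping matches. At least 1 GC box was present in 42.6% of all windows, at least 4 in 7.63% and at least 7 in 1.12%. The GC content was 82.8% for HRH1, 63.2% for MAOA and 72.0% for MAOB, against a median of 58.0% over all windows. RefSeq lists 3 starts for HRH1, and the other 2 windows had a GC content of 54.0% and 44% with 0 GC boxes. A TATA box spelled TATAAA, searched on both strands and present in 10.7% of all windows, was found in 0 of the 4 promoters shown, as was CCAAT, present in 32.0%. These matches describe the letters in the windows, and no binding was measured.

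HNMT had the highest level of the 4 genes. In the authors' table its base mean was 282 normalized counts. The base mean of HRH1 was 43.2, that of MAOA 19.5 and that of MAOB 4.49. By base mean, not divided by length, HNMT exceeded 86.0% of the 20745 genes, HRH1 58.1%, MAOA 48.9% and MAOB 34.7%. The median base mean of all genes was 21.8, so HNMT and HRH1 lay above it and MAOA and MAOB below it. A base mean of at least 5 was reached by 3 of the 4 genes, against 64.3% of all genes. MAOB was the gene under 5, so that on average fewer than 5 normalized counts per library lie behind its value.

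**Figure D1:**
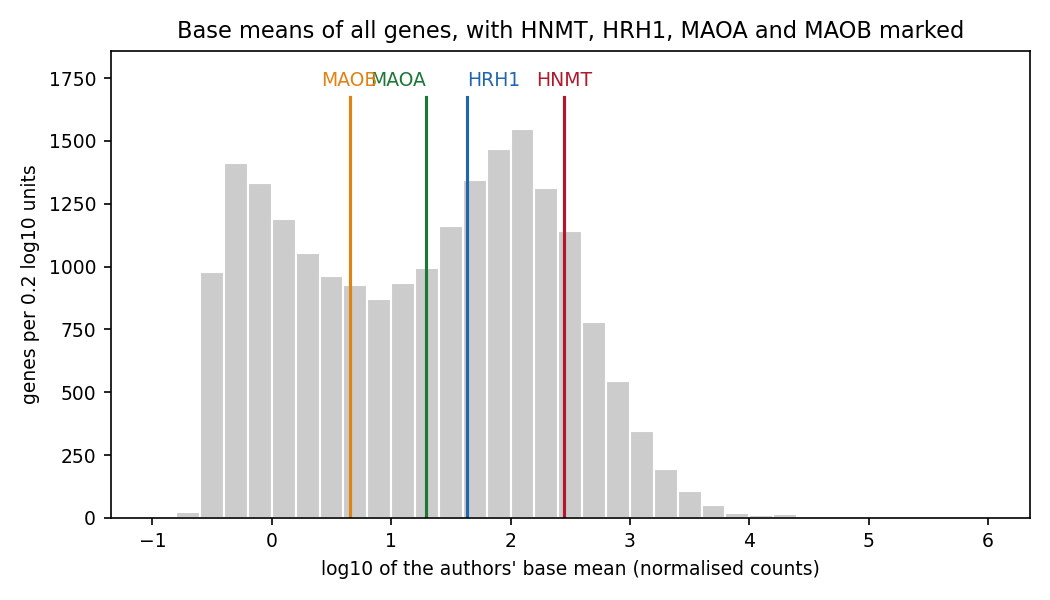
Histogram of the log10 base mean (x axis, authors' normalized counts) against the number of genes per bin (y axis), with vertical lines at MAOB, MAOA, HRH1 and HNMT. HNMT (282) lies to the right in the upper of the 2 broad peaks, HRH1 (43.2) on its left slope, and MAOA (19.5) and MAOB (4.49) in the trough between the peaks.

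Levels of different genes were compared as base mean per kb of the longest annotated transcript. On this scale HNMT stood at 90.1, HRH1 at 9.16, MAOA at 2.32 and MAOB at 1.75, and the median gene stood at 7.28. These levels exceeded those of 87.5% of genes for HNMT, 53.4% for HRH1, 33.6% for MAOA and 29.9% for MAOB. HNMT was 9.84 times HRH1, 38.9 times MAOA and 51.6 times MAOB per kb. Undivided, HNMT was 6.54 times HRH1, 14.5 times MAOA and 62.8 times MAOB, and per kb of canonical transcript it was 18.2 times MAOA. With 1 pooled mean per gene, the spread between cultures behind these ratios is unknown.
The order of HNMT, HRH1 and the pair of monoamine oxidases was kept with every choice of length tried. The order of MAOA and MAOB was not. MAOA was 1.33 times MAOB per kb of longest transcript, 2.84 times per kb of canonical transcript and 0.966 times per kb of all annotated exons together, while its undivided base mean was 4.34 times that of MAOB. The longest MAOA transcript has 8.408 kb and the canonical one 3.931 kb, whereas for MAOB both have 2.57 kb. In a 3′ end library the number of reads per transcript need not rise with its length, so the undivided values are given beside those per kb. MAOA and MAOB could not be ordered from these values.

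**Figure D2:**
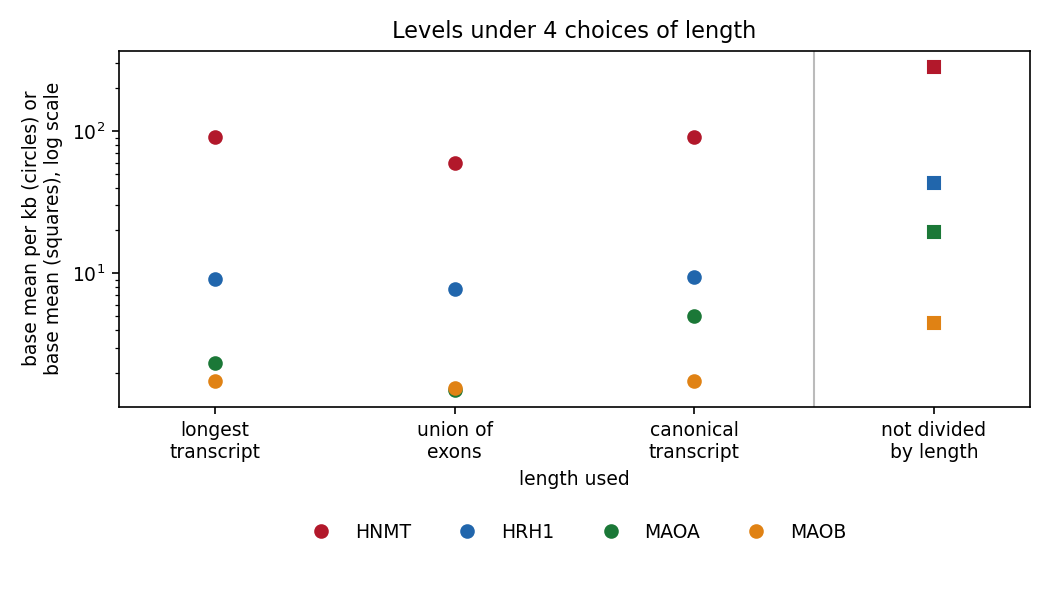
Level of each gene (y axis, log scale) by the length used to divide its base mean (x axis), with circles for base mean per kb and squares for the undivided base mean. HNMT is highest and HRH1 next in all 4 columns, while MAOA and MAOB nearly coincide for the union of exons (1.499 and 1.55 per kb) and lie apart for the canonical transcript (4.96 and 1.75 per kb).

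The gene models differ in the parts that such a library reads. HNMT (ENSG00000150540) lies on the plus strand at chr2:137964020-138016364 of GRCh38, and its canonical transcript has 6 exons with a 3′ UTR of 2237 bases, 71.4% of its length. HRH1 (ENSG00000196639, plus strand, chr3:11137093-11263557) has 2 canonical exons, the second of which carries the whole coding sequence and a 3′ UTR of 3059 bases. MAOA (ENSG00000189221) lies on the plus strand at chrX:43654907-43746817 and MAOB (ENSG00000069535) on the minus strand at chrX:43766610-43882450. They are each other's nearest protein-coding neighbor, lie tail to tail with 19.8 kb between their 3′ ends, and each have 15 canonical exons. Their coding sequences have nearly the same length, 1581 bases for MAOA and 1560 bases for MAOB, but the 3′ UTR has 2307 bases in MAOA and 859 in MAOB. For all 4 genes, 0% of the last 500 exonic bases of the canonical transcript were covered by exons of another gene, on either strand. HRH1 overlaps 3 other annotated genes elsewhere along its span. Its nearest protein-coding neighbor is ATG7, which encodes an autophagy enzyme and had a base mean of 96.7.

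**Figure D3:**
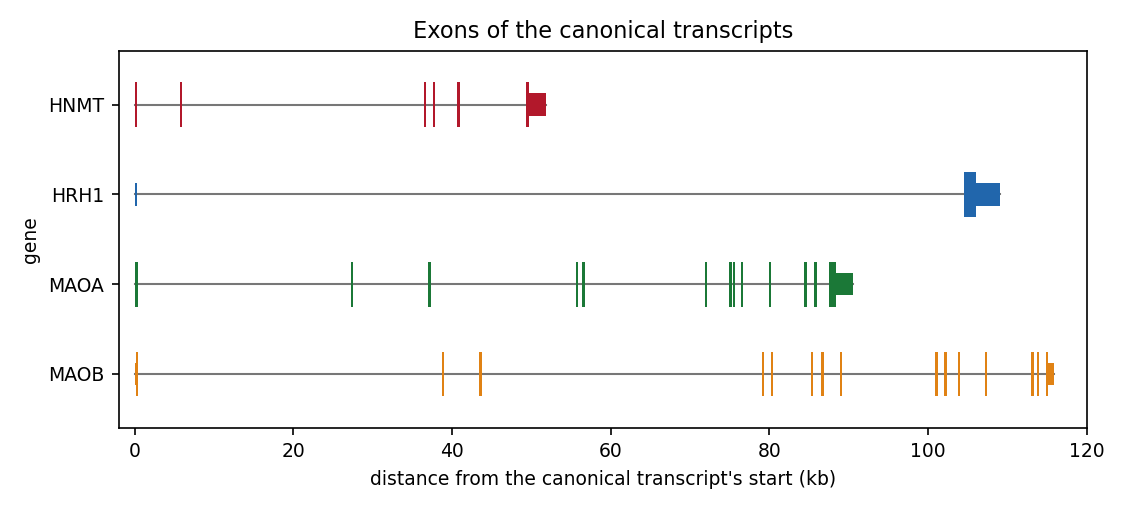
Canonical transcripts of HNMT, HRH1, MAOA and MAOB drawn as distance from the transcript's start (x axis, kb), with tall boxes for coding exons, low boxes for untranslated exons and lines for introns, the narrowest boxes being widened to be visible. The coding sequence of HRH1 sits in a single box at its 3′ end, while MAOA and MAOB each have 15 exons.

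Along the histamine route, HNMT, which takes the first step of breakdown inside cells, stood at 90.1 per kb and MAOB, which can take the next, at 1.75 per kb. ALDH7A1, an aldehyde dehydrogenase listed for the step after oxidation, had a base mean of 645 (135 per kb). Values were available for 3 of the 5 genes listed for histamine synthesis and breakdown. HDC, which makes histamine from histidine, and AOC1, the diamine oxidase that degrades extracellular histamine, were not analysed here. Of the 4 histamine receptor genes HRH1 was the one with a value, and HRH2, HRH3 and HRH4 were not analysed here.
Downstream of the H1 receptor, 13 of 14 listed genes had a value and 10 of them a base mean of at least 5. The highest were GNA11 (723) and GNAQ (475), which encode G protein alpha subunits of the Gq class, and PLCB4 (648), a phospholipase C that these subunits activate. Per kb, GNA11 stood at 173, PLCB4 at 82.8 and GNAQ at 69.0, all above HRH1 at 9.16. GNA15, another alpha subunit of this class, had a base mean of 0.773.

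Among the genes listed as amine oxidases MAOB had the lowest value on each scale, apart from the union of exons. The place of MAOA in this list depended on the division by length. Of 9 listed genes 7 had a value, and 6 had a base mean of at least 5. SMOX, which oxidizes the polyamine spermine, was highest with a base mean of 229 (98.5 per kb). RNLS, the flavoprotein renalase, followed with 59.4 (17.6 per kb), and AOC2, a copper amine oxidase, with 21.1 (7.90 per kb). Undivided, MAOA (19.5) came next and was the median of the 7 genes, and MAOB (4.49) was lowest. Per kb of longest transcript, MAOA (2.32) and MAOB (1.75) had the lowest values of the 7 genes, and per kb of canonical transcript MAOA (4.96) ranked above IL4I1 (3.50), a secreted amino acid oxidase named after its value was seen. The lysyl oxidases, secreted copper enzymes that oxidize lysines of collagen and elastin, all had a base mean of at least 5 (5 of 5), led by LOXL2 at 3791, LOX at 962 and LOXL1 at 647.
In the group of enzymes that conjugate amines by methyl, acetyl or sulfate transfer, 9 of 15 genes had a value and 8 a base mean of at least 5. SAT1, which acetylates polyamines, had a base mean of 1603. NNMT, which methylates nicotinamide, had 352 (175 per kb), above HNMT at 90.1 per kb. Reads of the SULT1A and NAT families can be split between closely related copies, so the counts of those genes are uncertain.

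The methyl donor of HNMT comes from a cycle of which 5 of 6 listed genes had a value. MAT2B, the regulatory subunit of methionine adenosyltransferase, had a base mean of 604, AHCYL1, a relative of AHCY, had 596, and AHCY, which removes the S-adenosylhomocysteine left after methyl transfer, had 256. AHCY stood above HNMT per kb (108 and 90.1) and below it undivided (256 and 282), so these genes could not be ordered. GNMT, a methyltransferase best known from liver, had a base mean of 0.353.
All 11 listed genes for aldehyde oxidation and reduction had a value, and 9 had a base mean of at least 5. AKR1B1, aldose reductase, had a base mean of 1170, ALDH7A1 had 645 and AKR1A1, another aldehyde reductase, had 232.
For amine transport and amine synthesis most listed genes had a base mean under 5 or were not analysed here. Of 9 transporter genes 7 had a value and 3 a base mean of at least 5, namely SLC29A4 (29.9), SLC22A2 (24.3) and SLC22A3 (9.74), which encode polyspecific carriers that move organic cations including histamine. Of 8 genes for amine synthesis 2 had a value, ODC1, the first enzyme of polyamine synthesis, with a base mean of 154, and TPH1, a tryptophan hydroxylase, with 3.05.
Across the 10 lists, 60 of 80 different genes had a value. Among these 60 genes HNMT ranked 15 by base mean per kb, HRH1 32, MAOA 45 and MAOB 47, and undivided they ranked 15, 31, 39 and 48. The median base mean of the 60 genes was 47.0, and 47 of them had a base mean of at least 5, against 64.3% of all genes in the table.

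**Figure D4:**
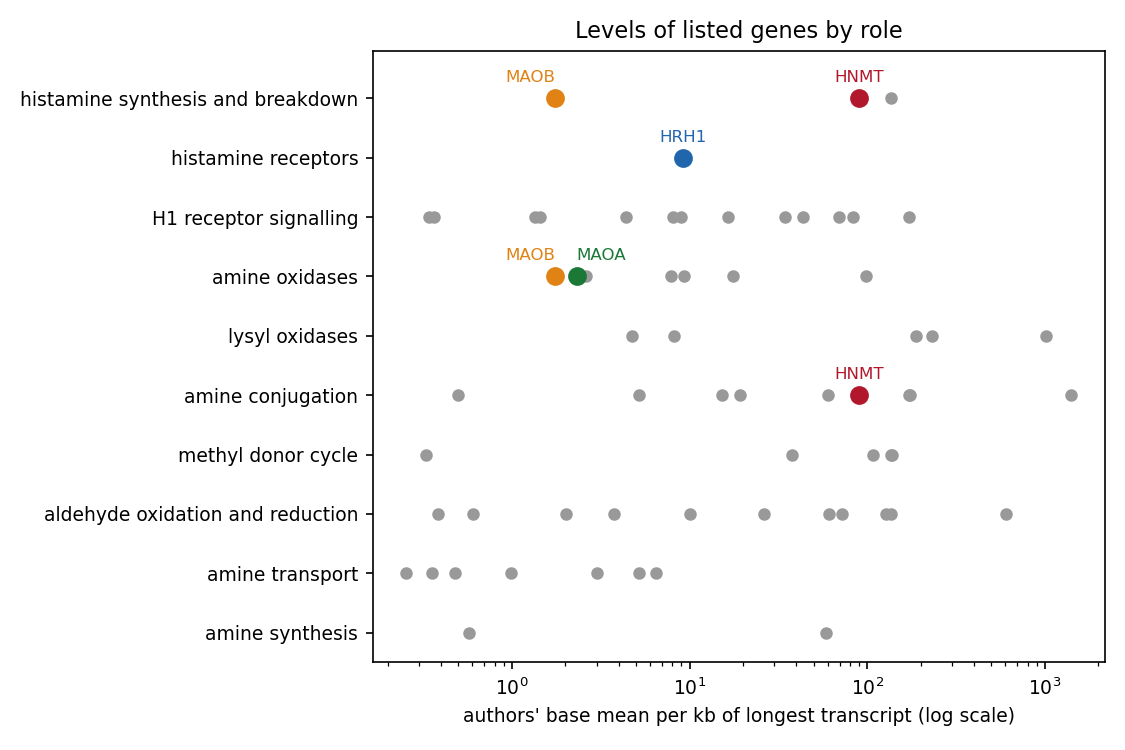
Base mean per kb of longest transcript (x axis, log scale) of the listed genes with a value, 1 point per gene, in 10 lists by role (y axis), with HNMT, HRH1, MAOA and MAOB colored and labeled. HNMT (90.1) lies toward the upper end of its lists, and MAOA (2.32) and MAOB (1.75) at the lower end of the list of amine oxidases. Some genes appear in more than 1 list.

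The labeled cell type was set against marker genes. Of 15 podocyte markers 12 had a value and 9 a base mean of at least 5, with a summed base mean of 15634. Most of this sum came from ACTN4 (14320.5), which encodes an actin crosslinker that many cells express. CD2AP, a slit diaphragm adaptor, had 929 and KIRREL1, a slit diaphragm protein, had 253. The more restricted markers were lower, with a base mean of 6.21 for the transcription factor WT1, 22.8 for the actin-associated SYNPO, 15.3 for PODXL, which encodes podocalyxin, and 0.333 for the phosphatase PTPRO. NPHS1 and LMX1B, which mark mature podocytes, were not analysed here.
Markers of other kidney or blood cells had base means under 5, apart from ACTA2, and the highest of the others, PDGFRB (4.14), lay close to MAOB (4.49). The endothelial markers VWF (0.434) and CDH5 (0.306), the tubule markers CUBN (1.219) and SLC34A1 (0.900), and the leukocyte and mast cell markers KIT (2.32), CD68 (1.06) and PTPRC (0.832) were the ones with a value in their lists. For these 3 groups the summed base means were 0.740, 2.12 and 4.21. In the mesangial list ACTA2, smooth muscle actin, had a base mean of 1021, PDGFRB had 4.14 and GATA3 1.54. In pooled bulk RNA, few cells with much RNA of a gene and many cells with little cannot be told apart.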

How the data were processed

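RNA was sequenced from 3 control and 3 levamisole-treated cultures. The authors trimmed reads with Trim Galore 0.4.5, mapped them to GRCh38 with STAR 2.7.5a, counted them with HTSeq 0.11.0 and compared the groups with DESeq2 1.22.0, as the submitters' processing notes and methods state. The methods also describe a BWA alignment with scaling by total reads. The deposited base mean is a signal, the mean of counts divided by size factors over the libraries of the authors' fit, whose number is not given in the sources used here. The other 5 value columns hold the authors' own comparison (log2 fold change, its standard error, test statistic, p-value and adjusted p-value) and were not used. As no values per culture were available, the planned edgeR test was not run and no test was made.

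Percentiles, base means per kb and promoter matches were obtained with pandas 2.3.3, SciPy 1.17.1 and NumPy 2.4.6 under Python 3.11.15, and plotted using matplotlib 3.10.9. The functions for percentiles, exon lengths, transcript ends, overlaps and motif matches were checked on small made-up inputs with known answers. Lengths and positions come from GENCODE 44 on GRCh38, which matched 20599 of 20745 gene identifiers. Mean values have no interval, since depth is unknown. The genes and lists were chosen with earlier results of these data known. The genes named are the 4 genes, the 3 highest of each list, listed genes under a base mean of 1, nearest neighbors and the main podocyte markers, and some listed genes are not reported here.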

Additional observations from a re-analysis of the deposited data

How the results depend on the processing

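No paired analysis was possible because the values used are pooled over cultures, and for the same reason no replicate was left out and no other normalization was tried. With the ranking limited to base means from 5 upward, the percentile was 78.3% for HNMT, 34.9% for HRH1 and 20.5% for MAOA, and at a minimum of 10 it was 75.8%, 27.6% and 11.6%, because fewer low genes enter the ranking. MAOB fell below both minimums and has no such value. Mitochondrial genes held 34.8% of the summed base means but are 22 of the 20745 genes. Leaving them out could therefore hardly move a rank, and no conclusion is drawn from it. Without them the percentile was 86.1% for HNMT, 58.1% for HRH1, 48.9% for MAOA and 34.7% for MAOB. As ratios to HNMT per kb of longest transcript, HRH1 stood at 0.102, MAOA at 0.0257 and MAOB at 0.0194. Without division by length HRH1 stood at 0.153 and MAOA at 0.0691, and with the canonical transcript, a choice made after seeing the data, MAOA stood at 0.0550. The other ratios remained within 1.5 times. Of the 60 listed genes with a value, 47 had a base mean of at least 5, 58 of at least 1 and 43 of at least 10.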
